A study of Mus musculus with 12 samples.

Results

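The genes described here are the clustered histone genes, the genes of the mouse histone clusters 1 to 4 that encode the linker histone H1 and the core histones H2A, H2B, H3 and H4. They were taken as every gene whose name in the array files starts with Hist1h, Hist2h, Hist3h or Hist4h, which gave 45 genes (52 probes) of the 34650 gene names (55681 probes) on the array. Of the 45, 6 encode H1, 12 encode H2A, 10 encode H2B, 8 encode H3 and 9 encode H4. Cluster 1 (chromosome 13) held 34 of them, cluster 2 (chromosome 3) held 8, cluster 3 (chromosome 11) held 2, of which Hist3h2bb-ps is a pseudogene, and cluster 4 (chromosome 6) held 1. Where several probes carry 1 name, the values are those of the probe whose mean level was the highest.

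Histones package DNA into nucleosomes, and most genes of these clusters are replication-dependent: they are transcribed in S phase, when newly made DNA needs new histones. Their transcripts are unusual in having no introns and, in place of a poly(A) tail, a short conserved stem-loop at the 3′ end that is bound by SLBP, while the coactivator NPAT drives their transcription. In differentiated cells some genes of the clusters, Hist1h1c and Hist1h2bc among them, are also known to give polyadenylated transcripts, and a separate group of variant histone genes outside the clusters is transcribed throughout the cell cycle.

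The arrays measured RNA of sorted mouse skin cells, with 1 array in each of 12 groups. Hair follicle stem cells (HFSCs, the cells of the follicle bulge that rest between hair cycles and divide when a new hair starts to grow) came from 4 kinds of mice. They were Col17a1 conditional knockout mice (cKO, deletion from the K14 promoter, active in basal keratinocytes, 12 weeks old), their wild-type controls (12 weeks), aged wild-type mice (at least 22 months) and young wild-type mice (8 weeks). The cKO and control mice had been given 2 mg of tamoxifen on each of 5 days. HFSCs of each kind were taken 3 days after hair had been plucked, which sets off a new hair cycle, and without plucking. Interfollicular epidermal cells (IFE, the epidermis between follicles) and total epidermal cells came from aged and from young unplucked mice. The labels give C57BL/6 as the strain of all groups but the cKO groups, for which they name no strain. The labels do not tell how many animals a sample held, nor whether the same animals gave both plucked and unplucked cells, and the p-values therefore reflect the scatter of these particular samples, part or all of which may be technical.

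Levels are log2 values relative to the array's 75th percentile, so that a level of 0 lies at that percentile, and a difference of 1 is a 2-fold difference. They compare 1 probe between arrays, never 1 probe with another. Spots well above background made up 49.71% to 64.97% of those on each array. Col17a1, the gene deleted in the cKO mice, had levels of 5.79 on the plucked and 7.0 on the unplucked cKO HFSC array, against 6.22 and 7.31 on those of the controls. It had 6.19 and 6.87 on the plucked and unplucked aged HFSC arrays, against 5.67 and 7.39 on the young ones, 6.31 and 6.30 in aged and young total epidermis, and 6.47 and 6.64 in aged and young IFE. The cKO minus control difference was -0.37 ± 0.39 (SE, limma adjusted p = 0.923); the labels do not give the deleted part of the gene, so this probe does not check them. HFSCs had been sorted as cells high for CD34 and ITGA6 and without SCA1, and IFE cells as high for ITGA6 and SCA1. Of these markers, Cd34 lay between 5.62 and 6.68 on the unplucked HFSC arrays, against -5.98 and -3.04 on the IFE arrays. It lay between 3.62 and 4.39 on the plucked HFSC arrays. Ly6a, which encodes SCA1, lay between -3.69 and 0.30 on the HFSC arrays, with the highest value on the young unplucked one, and between 3.33 and 4.37 in IFE and total epidermis. Itga6 lay between 4.19 and 5.77 on all 12 arrays.

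Of the 45 histone genes, 32 were well above background on all 12 arrays, 10 on some, and Hist1h1d, Hist1h2bp and Hist1h3a on none; the other 42 were tested in HFSCs. These probes differ in what they can tell apart. The coding regions of the H2A genes are nearly alike, and the probes of Hist1h2af, Hist1h2ag, Hist1h2ah, Hist1h2ak, Hist1h2an and Hist2h2aa2 were 86.7% to 95.8% identical over their overlap. The sequences of 4 of these 60-base probes are shown because their values cannot be read as those of separate genes. Capitals mark stretches of at least 20 bases that also occur in the probe of another gene name on the array.
Hist1h2ah (mm9 chr13:22127035-22127094, minus strand): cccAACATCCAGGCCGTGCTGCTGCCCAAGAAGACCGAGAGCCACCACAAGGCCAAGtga
Hist1h2ak (mm9 chr13:21845304-21845363, minus strand): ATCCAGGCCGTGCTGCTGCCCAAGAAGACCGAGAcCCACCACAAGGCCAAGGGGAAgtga
Hist1h2af (mm9 chr13:23626113-23626172, plus strand): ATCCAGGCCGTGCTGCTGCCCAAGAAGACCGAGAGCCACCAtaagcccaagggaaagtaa
Hist2h2aa2 (mm9 chr3:96043781-96043840, minus strand): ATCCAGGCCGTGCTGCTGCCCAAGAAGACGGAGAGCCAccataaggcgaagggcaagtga
The Hist1h2ah probe shares such stretches, covering 54 of its bases, with the probes of 8 other gene names, among them the variant gene H2afj. Hist1h2ag, Hist1h2ao and Hist2h2ac belong to the same web of shared stretches. The probes used for Hist1h4d and Hist1h4k share a stretch, and that of Hist1h4j shares stretches with unused probes of these genes. Those of Hist1h3c and Hist1h3f share a stretch as well. The members of such sets may not be told apart, although each is counted below as a gene of its own. No stretch of this length was shared by the probes of Hist1h1a, Hist1h1b, Hist1h1c, Hist1h1e, Hist1h2ab, Hist1h2bb or Hist1h2bm.

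The histone genes as a class were higher in plucked than in unplucked HFSCs. In a fit of mouse type and plucking over the 8 HFSC arrays (limma, 3 residual degrees of freedom, adjusted over all genes tested), 8 of the 42 tested members rose after plucking, 0 fell and 34 did not pass an adjusted p of 0.05. Over all 25366 genes tested, 0.394% rose and 0.106% fell. The 42 members had a median log2 difference of 2.42, with 40 of 42 estimates above 0 and 34 with an unadjusted p under 0.05, all of them higher. The median over all genes tested was -0.06, with 11725 of 25366 estimates above 0. At an unadjusted p under 0.05 by limma, 2520 of all genes were higher and 1936 lower. All 4 plucked arrays lay above all 4 unplucked arrays for 27 of the 42 members, and for 6.3% of all genes tested. The 8 that rose were Hist1h1a and Hist1h1e of H1, Hist1h2ab of H2A, Hist1h2bb of H2B, Hist1h3c, Hist1h3d and Hist1h3f of H3, and Hist1h4j of H4, with adjusted p between 0.0446 and 0.0459. Hist1h3c and Hist1h3f may not be told apart, and other members share probe stretches too, so these counts may stand for fewer separate genes. A further 17 members had a limma adjusted p under 0.1. Each of the 8 calls was lost, with the direction kept, when any 1 of the 4 pairs was left out (adjusted p from 0.0878 to 0.207), and when dim probes were not filtered (0.0515 to 0.0569). With normexp background correction and quantile scaling 27 members rose, 725 genes in all rose and 398 fell, so that 64.6% of the calls were higher, against 78.7% (100 of 127) here.

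**Figure D1:**
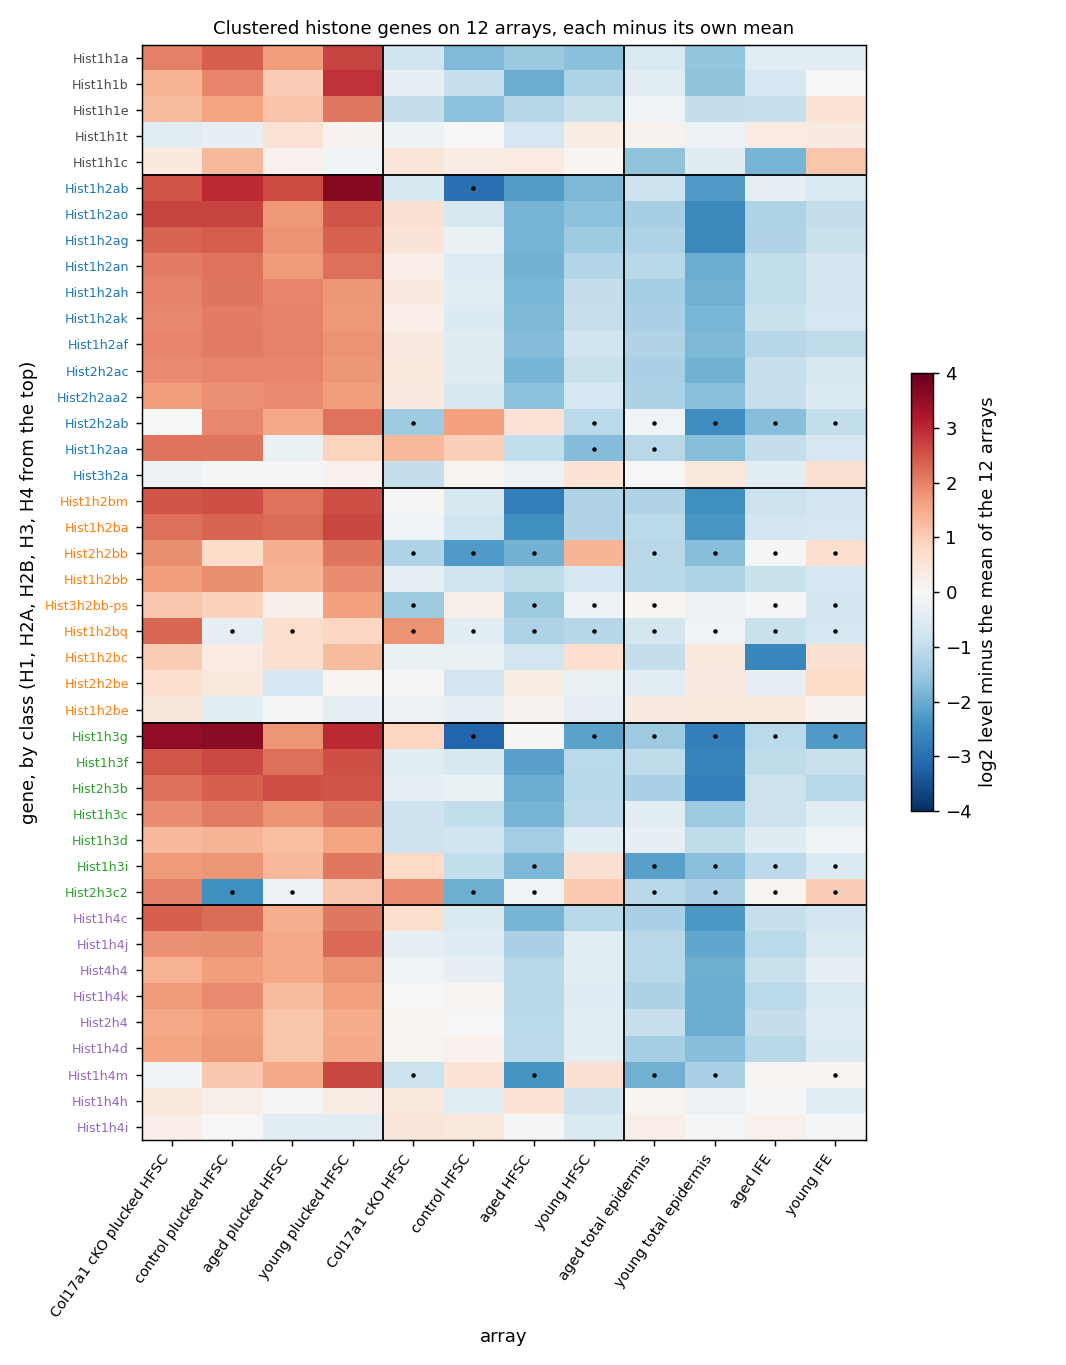
Levels of the 42 histone genes that were well above background on at least 1 array, 1 row per gene grouped by histone class and 1 column per array, as the log2 level minus the gene's mean over the 12 arrays (red higher, blue lower). Black dots mark values not well above background, and black lines separate plucked HFSCs, unplucked HFSCs and epidermis. The 4 plucked columns are red for most genes. They are near white for Hist1h1c, Hist1h1t, Hist3h2a, Hist1h2be, Hist1h4h and, by its highest probe only, Hist1h4i.

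Among the linker histones, which bind the DNA between nucleosomes, Hist1h1a (H1.1) had levels of 2.62, 2.97, 2.26 and 3.31 on the plucked cKO, control, aged and young arrays, against -0.19, -1.18, -0.88 and -1.07 on their unplucked counterparts. No plucked value came near an unplucked one, and the gene rose by 3.62 ± 0.36 (SE, limma adjusted p = 0.0446), or 12.3-fold. Hist1h1e (H1.4) had 3.25, 3.56, 3.13 and 4.12 on the plucked cKO, control, aged and young arrays, against 1.05, 0.37, 0.86 and 1.12 unplucked. It rose by 2.66 ± 0.29 (adjusted p = 0.0459), and again the groups did not overlap. Hist1h1b (H1.5) had 3.05, 3.61, 2.64 and 4.57 plucked, against 1.35, 0.73, -0.32 and 0.43 unplucked; its difference of 2.92 ± 0.44 did not pass (adjusted p = 0.0693) although the groups did not overlap.

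The other measured linker histones were flat. Hist1h1c (H1.2) had 2.24, 3.15, 2.02 and 1.70 on the plucked cKO, control, aged and young arrays, against 2.33, 2.15, 2.18 and 1.95 unplucked, a difference of 0.12 ± 0.31 (adjusted p = 0.86). Only the control pair moved by as much as 0.99. Hist1h1t, the testis form, had -2.76, -2.68, -1.76 and -2.20 plucked, against -2.57, -2.34, -3.02 and -2.07 unplucked (0.15 ± 0.36, adjusted p = 0.852). Over H1 as a class, 2 of 5 tested members rose and the median difference was 2.66.

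H2A and H2B form the dimers that flank the nucleosome core. The largest difference of any member was that of Hist1h2ab, with 1.62, 2.10, 1.71 and 2.77 on the plucked cKO, control, aged and young arrays, against -1.53, -3.88, -3.13 and -2.69 unplucked. It was well above background on all 4 plucked and on 3 of the 4 unplucked arrays, the exception being the control one. It rose by 4.86 ± 0.51 (adjusted p = 0.0446), or 29.0-fold, and its probe shared no stretch with another. Within H2A the next estimates were those of Hist1h2ao (3.30 ± 0.39, adjusted p = 0.0515) and Hist1h2ag (2.99 ± 0.41, adjusted p = 0.0648), neither of which passed.

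Of the H2A probes with shared stretches none passed. Hist1h2ah had 7.34, 7.47, 7.29 and 7.12 on the plucked cKO, control, aged and young arrays, against 5.69, 4.91, 3.52 and 4.39 unplucked (2.68 ± 0.40, adjusted p = 0.0691). The 4 plucked arrays lay within a narrow band, while the unplucked ones spread, with cKO at the top and aged at the bottom. Its look-alikes on cluster 2, Hist2h2aa2 and Hist2h2ac, had differences of 2.41 ± 0.40 and 2.59 ± 0.43 (adjusted p = 0.0807 and 0.0789). Hist2h2ab, whose probe shares no such stretch, had -3.74, -1.83, -2.21 and -1.57 plucked, against -5.16, -2.12, -3.18 and -4.82 unplucked. It was well above background on 2 of the 4 unplucked arrays (1.48 ± 0.53, limma adjusted p = 0.25). Hist1h2aa, which encodes the testis form of H2A, had a difference of 1.34 ± 0.40 (adjusted p = 0.191). Hist3h2a had 0.33, 0.51, 0.51 and 0.72 plucked, against -0.42, 0.67, 0.30 and 1.10 unplucked, so that the groups overlapped (0.11 ± 0.29, adjusted p = 0.87). Of 12 tested H2A members 1 rose, and the class median was 2.65.

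For H2B, Hist1h2bb had 1.26, 1.44, 0.94 and 1.47 on the plucked cKO, control, aged and young arrays, against -0.79, -1.23, -1.45 and -1.11 unplucked. This was the tightest contrast among the H2B genes, and Hist1h2bb rose by 2.42 ± 0.24 (adjusted p = 0.0446). Hist1h2bm had a larger difference with more spread: 6.64, 6.70, 6.30 and 6.70 plucked, against 4.17, 3.47, 1.35 and 2.92 unplucked (3.61 ± 0.45, adjusted p = 0.0566). Hist1h2ba, the gene of the testis form of H2B, ran beside it with 3.5 ± 0.44 (limma adjusted p = 0.0566). Its levels were 6.23, 6.34, 6.25 and 6.68 plucked, against 3.90, 3.21, 1.57 and 2.83 unplucked. Whether the probes of Hist1h2bm and Hist1h2ba read separate genes was not tested. Hist2h2bb was well above background on the 4 plucked and on 1 unplucked array, the young one (2.55 ± 0.50, adjusted p = 0.104). The pseudogene Hist3h2bb-ps was likewise above background on the 4 plucked and on 1 unplucked array, that of the control (1.68 ± 0.36, adjusted p = 0.115). Hist1h2bq was not well above background on any unplucked array and was so on 2 of the 4 plucked ones. Its estimate was higher after plucking and did not pass (limma adjusted p = 0.268), and its size is not given.

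The other H2B genes gave smaller values. Hist1h2be had -0.13, -0.99, -0.66 and -0.97 on the plucked cKO, control, aged and young arrays, against -0.81, -0.96, -0.43 and -0.98 unplucked (0.10 ± 0.27, adjusted p = 0.861). Hist2h2be had -0.52, -0.73, -1.85 and -1.04 plucked, against -1.22, -1.90, -0.86 and -1.46 unplucked (0.32 ± 0.41, adjusted p = 0.712). Hist1h2bc had 1.56, 0.86, 1.20 and 1.81 plucked, against 0.25, 0.24, -0.18 and 1.21 unplucked; it was higher in each of the 4 pairs, but the groups overlapped and the difference of 0.98 ± 0.27 did not pass (adjusted p = 0.178). In all, 1 of 9 tested H2B members rose, and the class median was 1.68.

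H3 and H4 form the tetramer at the centre of the nucleosome. Hist1h3f had 3.44, 3.62, 3.17 and 3.55 on the plucked cKO, control, aged and young arrays, against 0.55, 0.34, -1.20 and -0.10 unplucked, and rose by 3.55 ± 0.32 (adjusted p = 0.0446). Hist1h3c, whose probe shares 36 bases with it, had 4.19, 4.37, 4.08 and 4.39 plucked, against 1.46, 1.31, 0.43 and 1.24 unplucked, and rose by 3.15 ± 0.26 (adjusted p = 0.0446). Hist1h3d had 6.09, 6.18, 6.02 and 6.39 plucked, against 3.99, 4.01, 3.43 and 4.34 unplucked, and rose by 2.23 ± 0.24 (adjusted p = 0.0449). For each of these all 4 plucked arrays lay close together and above every unplucked array. Hist2h3b had a difference of 3.35 ± 0.42 that just missed the threshold (adjusted p = 0.0561).

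The H3 gene with the largest estimate, Hist1h3g, was also the most variable. It had 0.37, 0.41, -1.41 and -0.21 on the plucked cKO, control, aged and young arrays, against -2.34, -6.35, -3.14 and -5.33 unplucked, where only the cKO and aged arrays were well above background (4.08 ± 0.89, adjusted p = 0.12). Hist1h3i had a difference of 2.06 ± 0.45 (adjusted p = 0.119). Hist2h3c2 did not move with plucking (-2.17, -6.62, -4.39 and -3.10 plucked, against -2.30, -6.12, -4.31 and -3.12 unplucked; -0.11 ± 0.24, adjusted p = 0.839) but differed between kinds of mice, as given below. Of 7 tested H3 members 3 rose, with Hist1h3c and Hist1h3f, whose probes share bases, counted separately. The class median was 3.15.

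Among the H4 genes, Hist1h4j had 2.99, 3.04, 2.70 and 3.45 on the plucked cKO, control, aged and young arrays, against 0.81, 0.66, -0.12 and 0.71 unplucked, and rose by 2.53 ± 0.25 (adjusted p = 0.0446). Hist1h4c, whose probe is 85.4% identical to that of Hist1h4j, had a difference of 2.76 ± 0.35 (adjusted p = 0.0578). Hist4h4, the only gene of its cluster, had 4.63, 4.91, 4.79 and 5.04 plucked, against 3.07, 2.91, 2.12 and 2.81 unplucked (2.11 ± 0.28, adjusted p = 0.0603), and Hist2h4 had a difference of 1.81 ± 0.25 (adjusted p = 0.0648). Hist1h4h overlapped between the groups, with -1.54, -1.73, -2.04 and -1.68 plucked, against -1.53, -2.37, -1.42 and -2.79 unplucked (0.28 ± 0.36, adjusted p = 0.715). Of 9 tested H4 members 1 rose, and the class median was 1.81.

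The value of Hist1h4i depended on the probe. By its highest probe it had 7.48, 7.23, 6.79 and 6.74 on the plucked cKO, control, aged and young arrays, against 7.70, 7.61, 7.17 and 6.61 unplucked, a difference of -0.21 ± 0.24 (adjusted p = 0.679), the lowest of the 42. Another probe, at the beginning of the coding region, had 1.84, 2.13, 1.97 and 3.12 plucked, against -0.04, -1.31, -1.0 and 0.17 unplucked, a mean difference of 2.81. The remaining probe had differences of 3.03, 1.29, -0.39 and 1.23 in the cKO, control, aged and young pairs, with a mean of 1.29. The highest probe is the only one of these that shares a stretch, of 21 bases, with probes of other gene names, Galns and Slc10a1, neither a histone gene. This stretch, in capitals, and the coding probe are shown because the 2 probes gave different values. The highest probe may also read RNA of other genes, so its flat value may not be that of Hist1h4i.
Hist1h4i, shared stretch of the highest probe: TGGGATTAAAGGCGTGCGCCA
Hist1h4i, coding probe (mm9 chr13:22133139-22133198, minus strand): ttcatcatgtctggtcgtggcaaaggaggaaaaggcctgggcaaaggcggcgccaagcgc
The other 5 genes with more than 1 probe had mean differences above 0 by each probe. Hist1h2ak had mean differences of 2.67 and 3.54, Hist1h4d 1.78 and 2.20, Hist1h4k 1.99 and 2.48, Hist2h4 1.81 and 1.47, and Hist2h2bb 2.55 and 0.87. With the mean over all probes of a gene, 19 members rose after plucking.

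**Figure D2:**
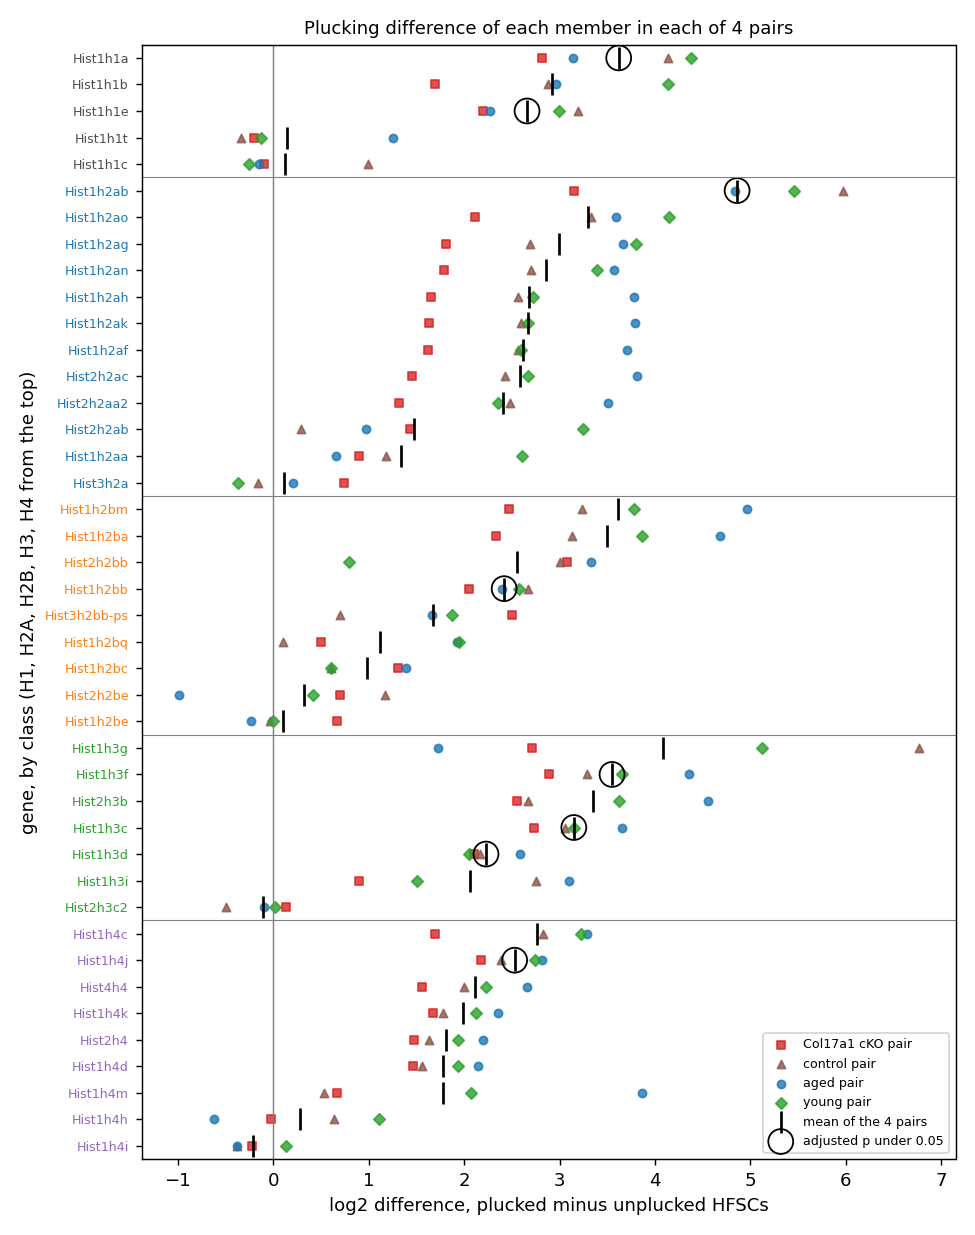
Log2 difference between the plucked and the unplucked HFSC array of each kind of mouse for the 42 tested histone genes, grouped by class. Symbols are the 4 pairs, black bars their mean, and black circles the 8 genes with a limma adjusted p under 0.05. Nearly all symbols lie right of 0. The cKO pair gave the smallest difference for 25 genes, which share single arrays, and no share over all genes was counted.

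Pair by pair, with no test, 30 of 42 members were at least 2-fold higher in plucked than in unplucked cKO HFSCs (22.4% of all genes compared), 30 of 40 in control (21.1%), 32 of 40 in aged (15.7%) and 33 of 42 in young HFSCs (14.9%); 0 members were 2-fold lower in any pair, where 17%, 20.2%, 16.8% and 11% of all genes were, in the same order. The median differences were 1.64, 2.52, 2.89 and 2.59 for cKO, control, aged and young mice. The cKO pair gave the smallest difference of the 4 for 25 of the 42 tested members, and the aged pair the largest for 23. On the plucked side the 4 arrays lay closer together: among the 32 members well above background on all 12 arrays, the median SD was 0.24 over the plucked arrays and 0.62 over the unplucked ones, and the unplucked SD was the larger for 25 of them. The unplucked cKO array was the highest of the 4 unplucked arrays for 27 of the 42 members, and the unplucked aged array the lowest for 28. These ranks and SDs were taken over the members alone, without a share over all genes. Members share single arrays and in part probe sequence, so they are not independent counts and support nothing about a kind of mouse. The unplucked cKO array also had the fewest spots well above background (49.71%), and it and the unplucked control array had the lowest median correlations with the other arrays (0.893 and 0.888). Without those 2 arrays 36 of 42 estimates stayed above 0 with 0 calls; their part in the pair differences was not tested.

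Whether plucking acted differently on aged and cKO cells than on young and control cells was tested as an interaction, and 0 of 42 members passed (limma; 0% of all genes did). At an unadjusted p under 0.05 stood 1138 of all 25366 genes tested and 1 member, Hist1h3g. Its plucking differences were 2.71 and 1.73 in the cKO and aged pairs, against 6.76 and 5.12 in the control and young pairs, so that the interaction was -3.72 ± 0.82 (adjusted p = 0.999). The unplucked control and young values of this gene were not well above background, so the sizes of those 2 differences are uncertain. With 2 residual degrees of freedom, no such difference in the histone response was detectable here.

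The stem-loop itself could be looked for in the probes. The pattern GGCNCTTNTNAGNGCC, which spells the 16 bases of the stem-loop with N for the variable positions, was found on the strand of the probe in those of Hist1h3a, Hist1h3g, Hist1h3i, Hist1h4m and Hist2h2bb. The matches are shown, in capitals throughout, because the first and the last bases of each are complementary and form the stem.
Hist1h3a, Hist1h3i and Hist2h2bb: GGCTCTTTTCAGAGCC
Hist1h3g: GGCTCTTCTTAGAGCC
Hist1h4m: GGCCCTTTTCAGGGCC
Of these 5 genes, Hist1h3a was on no array well above background and the others on 5 to 7 of the 12. The 4 that were tested had plucking differences between 1.78 and 4.08, with a median of 2.30, and 0 of them passed the threshold. Per the labels' protocols, cDNA was amplified from 1 to 10 ng of RNA with a whole-transcriptome kit. How far such amplification captures transcripts without a poly(A) tail was not measured here, so levels may understate them, while differences between arrays treated alike compare the same probe.

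Probes richer in G and C tended to be those with larger differences. The 26 tested members whose probe held at least 50% G and C had a median plucking difference of 2.60 and 24 of them exceeded 1; the 16 with less had a median of 1.30 and 9 exceeded 1. Across the 42 genes Pearson's r was 0.42 and Spearman's rho 0.40, which describes probes that share arrays and, in part, sequence. The called genes were split evenly, 4 in each set, and Hist1h2ab, with the largest difference, had a probe with 40% G and C. Where in its transcript each probe lies was not set against these values, so the part of probe position was not tested. A flat value holds for the stretch that the probe reads.

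**Figure D3:**
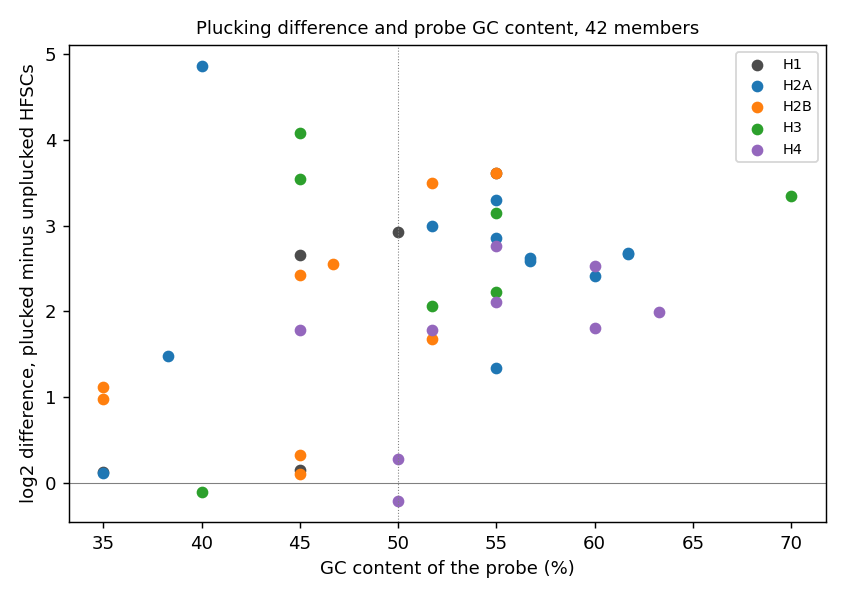
Plucking difference (log2, plucked minus unplucked HFSCs) against the GC content of the gene's probe in percent for the 42 tested histone genes, coloured by class. The dotted line marks 50%; most genes with a difference under 1 lie left of it, and the highest point, Hist1h2ab, lies there too.

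Promoter sequences were found in RefSeq (GRCm38.p6, 250 bases before to 50 after the start) for 39 of the 45 genes. The motifs searched, on both strands, were 4 known from histone promoters, none of which contains another. CCAAT was in 84.6% of these promoters, against 41.1% of the promoters of 27025 genes, and in all members of H1, H2A, H2B and H3 with a promoter but in 2 of 8 of H4. TATAAA was in 53.8%, against 15.7% of all promoters. The octamer ATTTGCAT, known from H2B promoters, was in 25.6%, against 1.97% of all; it was in 5 of 7 H2B and 5 of 12 H2A promoters and in 0 of the others. The H1 box AAACACA was in 23.1%, against 8.22% of all, with 5 of 6 among H1. The 150 bases before the start are shown for 5 genes that rose after plucking and for Hist1h1c, which was flat, with the motifs in capitals.
Hist1h1a (GRCm38.p6 chr13:23763518-23763667, plus strand): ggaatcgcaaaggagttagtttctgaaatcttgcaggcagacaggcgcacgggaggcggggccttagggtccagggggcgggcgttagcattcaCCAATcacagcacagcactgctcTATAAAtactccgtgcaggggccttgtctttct
Hist1h1e (GRCm38.p6 chr13:23622559-23622708, minus strand): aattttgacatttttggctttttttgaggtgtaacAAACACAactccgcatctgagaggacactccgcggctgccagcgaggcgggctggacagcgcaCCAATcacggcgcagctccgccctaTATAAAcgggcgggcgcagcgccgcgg
Hist1h1c (GRCm38.p6 chr13:23738657-23738806, plus strand): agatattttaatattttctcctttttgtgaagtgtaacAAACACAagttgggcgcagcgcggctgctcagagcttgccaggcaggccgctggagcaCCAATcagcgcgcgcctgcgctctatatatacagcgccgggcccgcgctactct
Hist1h2ab (GRCm38.p6 chr13:23750938-23751087, plus strand): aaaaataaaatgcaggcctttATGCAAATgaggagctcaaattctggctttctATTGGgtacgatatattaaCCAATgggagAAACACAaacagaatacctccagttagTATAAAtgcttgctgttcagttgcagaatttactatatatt
Hist1h2bb (GRCm38.p6 chr13:23746584-23746733, plus strand): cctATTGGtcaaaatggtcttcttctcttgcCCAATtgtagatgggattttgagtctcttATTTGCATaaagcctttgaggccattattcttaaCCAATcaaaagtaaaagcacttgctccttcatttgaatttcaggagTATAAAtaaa
Hist1h3c (GRCm38.p6 chr13:23745522-23745671, minus strand): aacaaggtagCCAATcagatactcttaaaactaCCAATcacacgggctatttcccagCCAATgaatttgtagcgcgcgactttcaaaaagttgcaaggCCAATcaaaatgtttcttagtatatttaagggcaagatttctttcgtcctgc
Hist1h1e and Hist1h1c, whose values after plucking differ, both hold an H1 box and a CCAAT box. Among the 37 tested members with a promoter, CCAAT was in 26 of the 30 with a plucking difference of at least 1 and in 5 of the 7 with less, and TATAAA was in 18 of 30 and in 1 of 7. The 1 of these 7 with TATAAA was Hist1h4i, which lay under 1 only by its highest probe. A match describes the exact letters of this window only, and other spellings of a motif were not searched.

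Genes that work with the clustered histones were read beside them. Of 11 replication-independent variant genes, 1 rose after plucking: H2afz, the gene of H2A.Z, by 2.13 ± 0.23 (limma adjusted p = 0.0459), with a list median of 1.03. H2afj, whose probe shares stretches with the H2A probes, had 2.48 ± 0.38 (adjusted p = 0.0711). H3f3a and H3f3b, which both encode the replacement histone H3.3, had 0.15 ± 0.24 and 0.39 ± 0.37 (adjusted p = 0.769 and 0.618). Of 15 tested genes of histone transcription and 3′ end processing 0 passed (5 at an unadjusted p under 0.05, all higher; median 0.57). Slbp had 2.44, 2.65, 2.64 and 3.04 on the plucked cKO, control, aged and young arrays, against -1.07, 2.16, 0.10 and 1.71 unplucked; the groups did not overlap, and the difference of 1.97 ± 0.55 did not pass (adjusted p = 0.176). Npat had 0.39 ± 0.48 (adjusted p = 0.701).

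Of 17 histone chaperone genes, which carry new histones to DNA, 1 rose: Chaf1a, the large subunit of the chromatin assembly factor, by 2.70 ± 0.26 (adjusted p = 0.0446), although it was well above background on 1 of the 4 unplucked arrays; the list median was 0.77. Of 33 DNA replication genes 2 rose and 0 fell, with 32 estimates above 0 and a median of 1.89. These were Orc1, of the origin recognition complex, which was not well above background on any unplucked array and at least 15.6-fold higher on the plucked ones (adjusted p = 0.0396), and Mcm10, also not well above background on any unplucked array and at least 9.99-fold higher (adjusted p = 0.0446). Both entered the test through the plucked arrays alone, so these 2 calls support nothing about the list. Of 20 mitosis genes 3 rose, Mki67, Bub1 and Tpx2 (adjusted p between 0.0446 and 0.0447), with all 20 estimates above 0 and a median of 3.98. Mki67, well above background on all 8 arrays, rose by 3.81 ± 0.40. Bub1 was well above background on 1 and Tpx2 on 2 of the 4 unplucked arrays, so the sizes of their differences rest partly on values near background. The histone median of 2.42 thus lay between those of the replication and the mitosis genes; whether it differs from either was not tested.

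Markers of the sorted and of other cell types were read as well, and 0 members of any of these 7 lists passed the plucking test by limma. At an unadjusted p under 0.05, 2 HFSC markers and 1 fibroblast marker were lower and 1 IFE marker and 1 fibroblast marker higher. The summed level of 6 HFSC markers, on a linear scale where 1 is the array's 75th percentile, was 191 to 268 on the plucked and 256 to 422 on the unplucked HFSC arrays, and that of 6 fibroblast markers 2.07 to 2.47 and 4.27 to 9.18. The sums were 45.3 to 62.2 plucked and 31.4 to 60.6 unplucked for 5 IFE markers, and 167 to 252 and 166 to 342 for 4 Langerhans and myeloid markers. Nearly all of this last sum came from the probe of Itgam, at 7.37 to 8.41 on the HFSC arrays. Cd74 lay between -3.28 and 1.14 there, and Cd207 was well above background on 4 and Lyz2 on 0 of the 12 arrays. In the same order, the sums were 0.63 to 0.943 and 0.651 to 1.04 for T cell markers and 1.13 to 1.64 and 0.781 to 1.56 for melanocyte markers. Those of endothelial markers were 2.34 to 3.08 and 2.73 to 6.72. The part of these in the histone differences was not tested, and in bulk RNA more cells in S phase and more histone RNA per cell cannot be told apart.

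Aged and young HFSCs were compared in the same fit, and 0 of 42 histone genes passed (limma, 0% of all genes did). At an unadjusted p under 0.05, 4 members were lower and 0 higher. Of all 25366 genes tested, 356 were lower and 869 higher at that cut. The median difference was -0.50, with 6 of 42 estimates above 0, against 0.03 over all genes tested. With each array centred on its median the values were -0.70 for the members and -0.17 for all genes. The lower median was seen in both pairs. In unplucked HFSCs the members had a median of -0.73, with 9 of 40 above 0, beside -0.06 for the DNA replication and 0.07 for the mitosis genes. In plucked HFSCs they had -0.42, with 10 of 42 above 0, beside -0.59 and -0.74. Age and the row of the slide ran together and cannot be told apart.

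The 4 members with an unadjusted p under 0.05 were mostly dim. Hist1h2bc, the one that was well above background on all 4 arrays, had 1.20 plucked and -0.18 unplucked in aged HFSCs, against 1.81 and 1.21 in young ones (-1.0 ± 0.39, limma adjusted p = 0.931). Hist2h3c2 was at least 1.54-fold lower in aged HFSCs, where it was not well above background (adjusted p = 0.931), and Hist2h2bb and Hist3h2bb-ps had differences of -1.96 ± 0.71 and -1.33 ± 0.51 (both adjusted p = 0.931), each well above background on 1 of the 2 aged arrays. Array against array, 3 of 40 members were at least 2-fold higher and 8 at least 2-fold lower in aged unplucked HFSCs, against 18.5% and 11.6% of all genes compared. Hist1h3g and Hist2h2ab were among the higher and Hist2h2bb and Hist1h4m among the lower, each well above background on 1 of the 2 arrays, so the sizes are not given. After plucking 0 members were 2-fold higher and 8 of 42 lower in aged HFSCs (9.87% and 10.1% of all genes), led by Hist1h1b (2.64 against 4.57, a difference of -1.93) and Hist3h2bb-ps (-1.44).

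In the epidermis the comparison of aged with young mice gave 0 of 34 calls (limma, 1 residual degree of freedom, 0% of all genes). At an unadjusted p under 0.05, 3 members were lower and 0 higher. Of all 22774 genes tested, 559 were lower and 927 higher at that cut. The median was 0.20, against 0.05 over all genes. The 3 were Hist1h2bc, Hist1h1c and Hist2h2be, which were among the 34 of 42 members that had not passed the plucking test. Hist1h2bc had -0.42 in aged total epidermis and -2.07 in aged IFE, against 0.92 and 1.16 in young mice (-2.28 ± 0.52, adjusted p = 0.651). Hist1h1c had 0.24 in aged total epidermis and -0.01 in aged IFE, against 1.38 and 2.98 in young mice (-2.06 ± 0.52, adjusted p = 0.666). Hist2h2be had -1.61 and -1.50 in aged total epidermis and IFE, against -0.80 and -0.43 in young mice (-0.94 ± 0.25, adjusted p = 0.69), and Hist3h2a followed with -0.72 ± 0.28 (adjusted p = 0.765). For each of these 4 genes both aged arrays lay below both young arrays. They were picked for low values on these same arrays, and the share of all genes split this way was not counted. Some other genes flat after plucking went the other way. Hist1h4h had -1.85 in aged total epidermis and -2.03 in aged IFE, against -2.19 and -2.38 in young mice. Hist1h4i had 7.47 and 7.36, against 7.16 and 7.11, by its highest probe, the only one by which it was flat.

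Over all members the pairs differed. In total epidermis 30 of 35 members were higher in the aged array, with a median of 0.68 and 11 at least 2-fold higher (5.2% of all genes) and 2 lower (6.9%), namely Hist1h2bc and Hist1h1c; the highest was Hist1h3f (1.64). In IFE 6 of 35 were higher in the aged array, with a median of -0.27, 0 at least 2-fold higher (8.57%) and 5 lower (3.56%), namely Hist1h2bc (-3.23), Hist1h1c (-2.99), Hist1h1e (-1.46), Hist2h2be (-1.07) and Hist3h2a (-1.03). The 35 members compared in each of these pairs include Hist1h2bc, Hist1h1c, Hist2h2be and Hist3h2a. Mitosis genes were higher in both, with 17 of 18 and 19 of 19 above 0 and medians of 1.02 and 0.73. The age difference in epidermis was set against that in HFSCs as an interaction, with 0 of 41 calls by limma (0% of all genes). At an unadjusted p under 0.05, 2 members were higher and 1 lower. Of all 24761 genes tested, 683 were higher and 639 lower at that cut. For Hist1h1c the interaction was -2.33 ± 0.72 (adjusted p = 0.912).

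**Figure D4:**
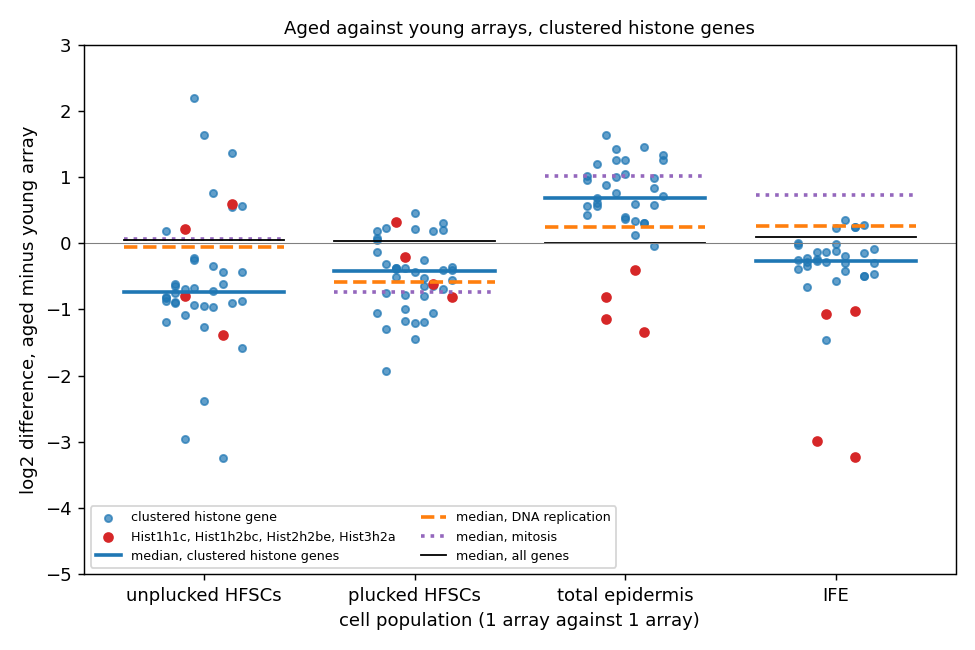
Log2 difference between the aged and the young array for each histone gene well above background on at least 1 of the 2, in 4 cell populations. Lines are medians of the histone genes, of DNA replication and mitosis genes and of all genes. The histone median is -0.73, -0.42, 0.68 and -0.27 from left to right. The 4 genes in red lie below 0 in both epidermal populations and were picked for low values there.

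Between cKO and control HFSCs 0 of 42 members passed (limma, 0% of all genes did). At an unadjusted p under 0.05, 2 members were higher and 1 lower. Of all 25366 genes tested, 807 were higher and 836 lower at that cut. The median was 0.31, against -0.01 over all genes; with each array centred on its median these were 0.15 and -0.17. The unplucked pair had a median of 0.53 over 40 members, with 31 above 0, beside 0.74 for DNA replication and 0.95 for mitosis genes. The plucked pair had -0.11, with 12 of 42 above 0. In the unplucked pair 6 members were at least 2-fold higher and 4 lower (17.6% and 20.8% of all genes), among them Hist1h3g and Hist2h3c2 higher and Hist2h2ab and Hist3h2bb-ps lower. Each of these 4 was well above background on 1 of the 2 arrays, so the sizes are not given. In the plucked pair 3 were higher and 2 lower (11.6% and 12%), with Hist2h3c2 and Hist1h2bq higher, neither well above background on the control array, and Hist2h2ab (-1.90) and Hist1h4m (-1.27) lower.

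Hist2h3c2, an H3 gene of cluster 2, was the member that differed most between kinds of mice. It was well above background on both cKO arrays (-2.17 plucked, -2.30 unplucked) and both young ones (-3.10 and -3.12), and on none of the control, aged or epidermal arrays. It was at least 6.28-fold higher in cKO than in control HFSCs (adjusted p = 0.294) and at least 3.42-fold lower in control than in young HFSCs (adjusted p = 0.528), and neither difference passed. Hist1h2bq had a higher estimate in cKO than in control HFSCs that did not pass (limma adjusted p = 0.655). Of the cKO and control arrays it was well above background on the plucked cKO one alone, so the size is not given. Hist2h2ab, well above background on 1 of the 2 cKO arrays, had -2.47 ± 0.74 (adjusted p = 0.716).

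Control and young HFSCs, both wild type, lay on different slides scanned on different days and differed in age and tamoxifen, which cannot be told apart. Of 42 members 0 passed (limma, 0% of all genes). At an unadjusted p under 0.05, 1 member was higher and 2 were lower. Of all 25366 genes tested, 1165 were higher and 1054 lower at that cut. The members had a median of 0.03, against 0.02 over all genes, and 0.22 and 0.20 with each array centred on its median. In the unplucked pair 4 of 40 members were at least 2-fold higher and 4 lower (21.5% and 18.9% of all genes), with Hist2h2ab and Hist1h2aa among the higher and Hist2h3c2 and Hist2h2bb among the lower, each well above background on 1 of the 2 arrays. In the plucked pair 2 of 42 were higher and 4 lower (10.3% and 12.4%). The comparisons of aged, control and cKO HFSCs share arrays with each other, so their values are not independent.

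Unplucked HFSCs were compared with IFE over 6 arrays with age as a term (2 residual degrees of freedom). No histone gene passed (0 of 35 by limma, while 4.76% of all genes did, 2.65% higher and 2.11% lower in HFSCs). At an unadjusted p under 0.05, 2 of the 35 were lower and 0 higher. Of all 23904 genes tested, 2565 were lower and 2245 higher at that cut. The median was -0.54, with 6 of 35 estimates above 0, against -0.09 over all genes. Hist1h2ab had -3.13 in aged and -2.69 in young HFSCs, against -1.24 and -1.48 in IFE (-1.55 ± 0.52, adjusted p = 0.2), and Hist1h1a had -0.88 and -1.07, against 0.13 in both IFE arrays (-1.11 ± 0.35, adjusted p = 0.184). Both were thus lower on the 2 HFSC arrays than on the 2 IFE arrays. They were picked by these same values, and the share of all genes split this way was not counted. In the same fit 2 of 31 DNA replication genes were lower in HFSCs, Orc1 (at least 3.70-fold, adjusted p = 0.0108) and Gins1 (-2.05 ± 0.30, adjusted p = 0.0373), and 1 of 18 mitosis genes, Bub1b (at least 2.58-fold, adjusted p = 0.0186). The medians of these lists were -0.85 and -1.63. Orc1 and Bub1b were not well above background on either HFSC array of this fit. They entered the test through the epidermal arrays alone, so their calls support nothing about these lists.

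By age, 1 of 38 members was at least 2-fold higher and 7 lower in young HFSCs than in young IFE (14.1% and 13.9% of all genes), the higher one being Hist1h3i, not well above background in IFE, and the lowest Hist1h1e (-1.43) and Hist1h2ab (-1.21). In aged HFSCs 4 of 37 were higher and 10 lower than in aged IFE (15.2% and 15%), with Hist1h1c (2.18) among the higher and Hist1h2bm (-1.92) among the lower; Hist2h2ab, higher, and Hist1h4m, lower, were well above background on 1 of the 2 arrays. Hist1h1c thus lay above IFE in aged HFSCs, with 2.18 against -0.01, and below it in young ones, with 1.95 against 2.98. Total epidermis against IFE gave 0 of 35 calls (limma, 0% of all genes) with a median of -0.69, against -0.02 over all genes. At an unadjusted p under 0.05 stood 0 members and 972 of all 23904 genes tested.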

How the data were processed

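RNA of 12 samples of sorted mouse skin cells was hybridised to 1 one-colour (Cy3) Agilent array each. The spot intensities deposited by the authors come from Agilent's Feature Extraction software, version 10.7.3.1, with protocol GE1_107_Sep09 and an mm9 design, per the file headers; the mean and local background intensities served 1 alternative. The value table of the authors holds log2 values of 55821 probes; how it was made is not given in the sources used here. It correlated with the scanner values, centred per probe, with r of at least 0.99989. Its column medians were 0.16 for cKO, -0.15 for cKO plucked, -0.02 for control, -0.2 for control plucked, -0.01 for aged, 0.02 for aged plucked, 0.02 for young and -0.14 for young plucked HFSCs, 0.13 and -0.02 for aged and young total epidermis, and -0.01 and 0.08 for aged and young IFE.

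Control and outlier spots were left out, each processed intensity was put on a log2 scale relative to the 75th percentile of its array, spots of 1 probe were averaged, and each gene name took its highest probe. Testing required a signal well above background on 2 or more of the arrays fitted. A gene above background in 1 group only was given as a bound, except Hist1h2bq, which was above it on part of that group's arrays. Tests used limma 3.58.1 in R 4.3.3 with Benjamini-Hochberg adjustment over all genes tested; methods were tested on simulated data, and figures drawn with matplotlib 3.10.9 in Python 3.11.15. With 1 array per group, the spread comes from pairs in additive fits, and array number limits the precision. No 2 arrays held the same values. Of the probes, 44 were matched to a current gene by accession and 8 by synonym. Another 6 probes described as histone cluster genes but named by transcript fall outside the rule and were not used.

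The members, gene lists and tests were chosen with earlier results of these data known. Genes named are all H1 members measured on all arrays, the 3 highest and 2 lowest members of each core class after plucking, all members of clusters 2 to 4, members past a threshold, the extremes of single pairs, and a few genes of the related lists; others were named after their values were seen.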

Additional observations from a re-analysis of the deposited data

Results flagged for a closer look

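In 3 cases a value lay far from the other 3 arrays of their kind by Dixon's criterion at 95%, among 83 sets of 4 plucked or 4 unplucked HFSC arrays looked at; chance gives about 1 in 20 sets. Hist1h2ag had 4.48 on the aged plucked array, with the nearest of the other plucked arrays at 5.00. Hist1h2bm had 6.30 on the aged plucked array, with the nearest at 6.64. Hist1h4j had -0.12 on the aged unplucked array, with the nearest at 0.66. All 3 are the lowest of their set and lie on an aged array; each set holds 4 kinds of mice.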

How the results depend on the processing

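The median plucking difference of the tested histone genes was 2.05 to 2.63 over all settings, while the count that rose ran from 0 to 27. It was 8, and became 27 with normexp and quantile scaling, 24 with genes well above background on every array, 19 with the mean over all probes, and 0 with no filter on dim probes. It was 25 with no mouse type term, that is without the pairing of plucked and unplucked arrays. It was 0 when any 1 pair was left out (0 to 0), within either slide (0 and 0) and, added after seeing the data, without the unplucked control and cKO arrays (0). Fewer arrays enter these last fits; for the other settings the cause was not tested. Over all genes, 100 rose and 27 fell after plucking, against 725 and 398, 420 and 281, 204 and 70, 18 and 4, and 357 and 154 in the same order of settings, and 0 in the fits with fewer arrays; for HFSCs against IFE the 633 and 504 became 344 and 262 with no filter.

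Members with an estimate near 0 changed sign. Hist1h4i, flat only by its highest probe, was at 0.04 with normexp and quantile scaling, and Hist2h3c2 at 0.03. With the mean over its probes Hist1h4i was at 1.30. Leaving out 1 pair at a time, Hist1h1t ranged from -0.22 (without aged) to 0.31, Hist2h3c2 from -0.19 to 0.02 (without control), Hist1h1c from -0.17 (without control) to 0.25, Hist3h2a from -0.11 (without cKO) to 0.27 and Hist1h2be from -0.09 (without cKO) to 0.22. Within slide 2, Hist1h1t was at -0.27. Within slide 1, and without the unplucked control and cKO arrays, Hist3h2a was at -0.08, Hist1h1c at -0.20, Hist2h2be at -0.29 and Hist1h2be at -0.11. In the other 8 comparisons 0 members were called in any setting tried. Dim probes limit 10 members to some arrays and 3 to none.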
